A study of Mus musculus with 6 samples.

Results

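The BCL2 family holds the proteins that decide whether the outer mitochondrial membrane stays closed or opens during intrinsic apoptosis. Pro-survival members such as BCL2, BCL-XL and MCL1 hold the effectors BAX and BAK in check, and BH3-only members such as BIM, BID, BAD, PUMA and NOXA bind the pro-survival proteins or engage the effectors directly. Once BAX or BAK permeabilizes the membrane, cytochrome c reaches the cytosol and caspases are activated, and macrophages are known to lean on MCL1, A1 and BCL-XL for survival. The 10 genes described here were chosen by mouse symbol: Bcl2, Bcl2l1 and Mcl1 of the pro-survival class, Bax and Bak1 of the effector class, and Bid, Bad, Bcl2l11, Bbc3 and Pmaip1 of the BH3-only class. All 10 were found among the 49315 genes of the count table, and all 10 passed the filter on low counts.

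RNA was sequenced from RAW264.7 cells, a mouse macrophage-like line of wild-type genotype that was used here without a genetic change. One group received 4 μg/mL SKI-II, a small molecule first known as a sphingosine kinase inhibitor, and the other group received its vehicle DMSO, both for 24 h, with 3 libraries per group. The comparison asks how the compound changes the transcriptome of resting macrophages. The labels number the libraries but do not say whether they come from separate cultures, so every p-value below measures only the spread between these libraries.

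The libraries held 12495957 to 20050677 counts. All 9 macrophage markers were detected, with summed levels of 9009 to 12150 CPM (counts scaled to the library total) in DMSO and 5724 to 8078 in SKI-II. The 4 epithelial markers were at 0 in every library, and those of fibroblasts, T cells, B cells and endothelial cells summed to at most 26, 2, 5 and 9 counts in any library. The 4 neutrophil markers summed to 36, 56 and 105 counts with DMSO and 27, 117 and 94 with SKI-II, with overlapping groups, nearly all of S100a8, while Ly6g was at 0 in every library. The mitochondrially encoded genes took 1.07% to 1.25% of the counts in DMSO and 1.38% to 1.71% in SKI-II. The fall of the summed marker level lay in Lyz2: without it, the other 8 markers summed to 3274 to 3675 CPM in DMSO and 3834 to 4242 in SKI-II. Of the 9 markers, 2 rose (Cd14 and Fcgr1), 3 fell (Lyz2, Adgre1 and Itgam) and 4 did not pass the test. The markers thus showed no common direction, and the sum without Lyz2 holds both risen and fallen genes. The part of the mitochondrial share and of the marker changes in the results below was not tested. In bulk RNA, fewer cells with a transcript and less of it per cell cannot be told apart.

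With SKI-II, 2 of the 10 members rose and 2 fell, where edgeR's quasi-likelihood test gave an adjusted p under 0.05. Bcl2l1 and Bad rose, Mcl1 and Pmaip1 fell, and the remaining 6 did not pass the test. Each direction thus held 1 pro-survival and 1 BH3-only gene, and neither effector passed. Over all 12274 genes tested, 38.0% passed the same threshold, 18.4% higher and 19.7% lower, so the count among the members lay near the background. Both this threshold and a log2 fold change beyond 1 in size were passed by 1 member, Pmaip1, against 15.7% of all tested genes. The SKI-II and DMSO libraries did not overlap for 4 of the 10 members, the same 4 genes, and for 50.3% of all genes. The median log2 fold change was -0.05 over the members and 0.00 over all tested genes.

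**Figure D1:**
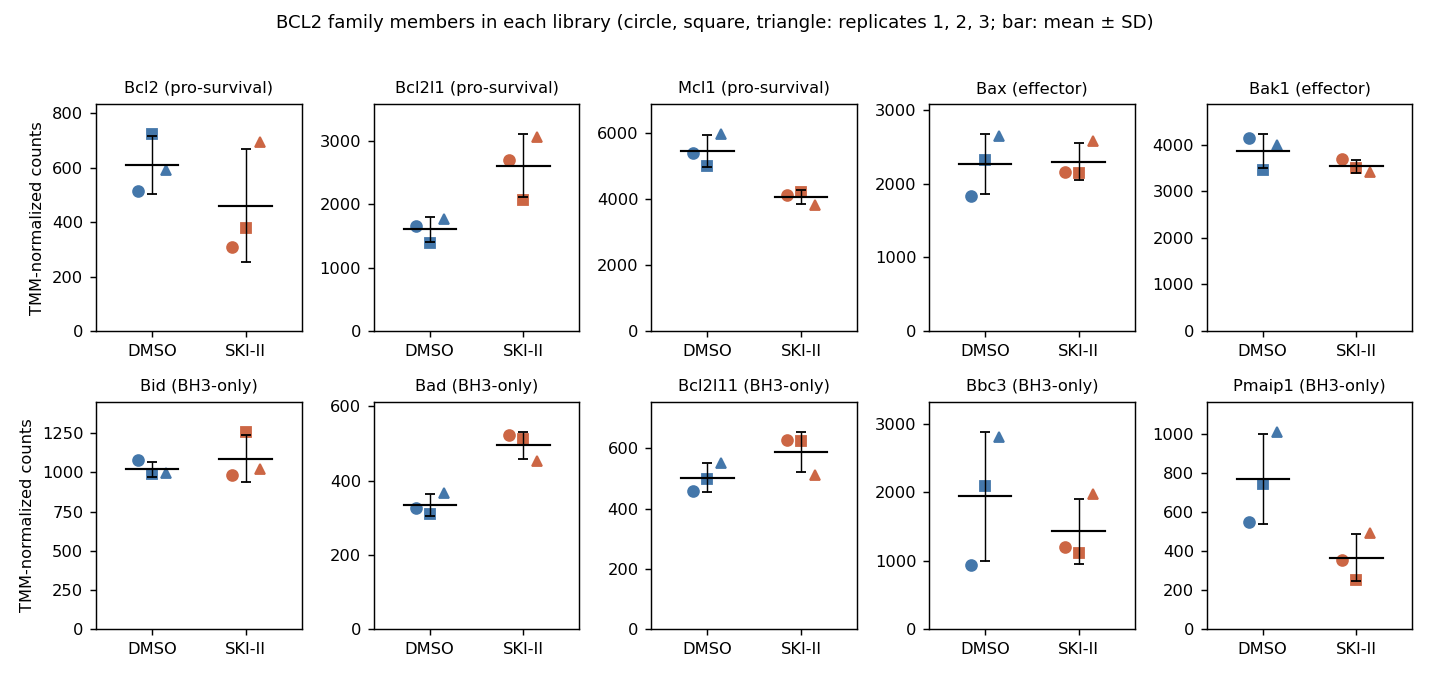
TMM-normalized counts (y axis, from 0) of each BCL2 family member in the 3 DMSO (blue) and 3 SKI-II (orange) libraries, with symbols for the replicate number, a bar for the mean and whiskers for the SD. The groups separate for Bcl2l1, Mcl1, Bad and Pmaip1, and overlap for the other 6 members.

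The sequence before the start site is shown for 3 of the members that passed the test and for Bcl2l11, because factors known to act on these genes (CHOP, ATF4, AP-1 and FOXO factors) are among the regulators whose RNA is given further on. RefSeq windows of 250 bases upstream of a start (GRCm38.p6) were matched for 9 members with 15 windows, all but Pmaip1. Capitals mark matches to the motifs searched on both strands, which were GC boxes (GGGCGG) in Bad, Mcl1 and Bcl2l11 and also 1 FOXO site (GTAAACA) in Bcl2l11. The windows are, in order, chr2:152831729-152831978 on the minus strand, chr3:95658471-95658720, chr19:6941611-6941860 and chr2:128125788-128126037 on the plus strand.
Bcl2l1: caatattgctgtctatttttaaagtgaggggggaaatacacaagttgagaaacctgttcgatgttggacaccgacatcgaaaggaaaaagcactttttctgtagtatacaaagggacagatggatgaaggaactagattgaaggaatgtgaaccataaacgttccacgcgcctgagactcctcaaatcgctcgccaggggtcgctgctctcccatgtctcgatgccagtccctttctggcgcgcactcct
Mcl1: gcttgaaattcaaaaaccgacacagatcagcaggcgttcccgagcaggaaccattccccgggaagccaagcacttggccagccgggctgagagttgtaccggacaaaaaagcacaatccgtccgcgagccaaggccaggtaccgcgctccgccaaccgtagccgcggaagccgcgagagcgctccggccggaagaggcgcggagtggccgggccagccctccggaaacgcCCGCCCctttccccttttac
Bad: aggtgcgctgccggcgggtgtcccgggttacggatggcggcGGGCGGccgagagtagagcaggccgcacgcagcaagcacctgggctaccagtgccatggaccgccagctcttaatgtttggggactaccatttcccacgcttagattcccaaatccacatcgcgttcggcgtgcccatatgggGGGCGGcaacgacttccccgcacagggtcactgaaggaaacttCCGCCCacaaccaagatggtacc
Bcl2l11: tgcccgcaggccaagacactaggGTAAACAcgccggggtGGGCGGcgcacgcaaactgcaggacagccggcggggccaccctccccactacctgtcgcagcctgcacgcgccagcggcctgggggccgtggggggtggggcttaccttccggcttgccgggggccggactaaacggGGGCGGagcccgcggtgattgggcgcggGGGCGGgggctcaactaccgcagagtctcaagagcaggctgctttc

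The windows shown are those nearest the annotated start of each gene. That of Bcl2l1 held no GC box and 47.6% G and C. Those of Mcl1, Bad and Bcl2l11 held 1, 3 and 3 GC boxes and 64.4%, 62.8% and 72.0% G and C. Further windows held no GC box for Bcl2l1 (48.4% and 53.2% G and C) or Bad (64.8%), and 2 for Bcl2l11 (73.2%). Over all 32851 windows the median was 52.4%, and 32.74% held a GC box. None of the 15 windows of the members held the CHOP-ATF4 composite motif TGATGNAA, which 3.45% of all windows held, the AP-1 motif TGANTCA (6.75%), the cyclic AMP response element TGACGTCA (1.55%) or the NF-kB motif (0.36%). The FOXO motif, in 3.17% of all windows, began 227 bases before the Bcl2l11 start and 167 bases before another start, of Bbc3. An E-box (CACGTG, 6.02%) stood in 1 window each of Bax and Bbc3, and a p53 half-site (7.13%) in that of Bax. A match says only that these letters are present in the window.

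Bcl2l1, which encodes the pro-survival protein BCL-XL, was at 1657, 1388 and 1761 normalized counts in DMSO replicates 1 to 3 and at 2695, 2069 and 3057 in SKI-II replicates 1 to 3. The lowest SKI-II library exceeded the highest DMSO library. The level was 1.63-fold higher with SKI-II (log2 fold change 0.70, SE 0.16, 95% interval 0.34 to 1.06, adjusted p = 0.00712, edgeR). With 1 library left out in turn, the log2 fold change ran from 0.57 to 0.85 and passed the test in all 6 fits. Bcl2l1 lies on the minus strand at chr2:152780668-152831728 (GRCm38), and its exons overlap no other gene in GENCODE M21. Counts per gene do not separate its splice forms, of which the long form opposes apoptosis and the short form promotes it.

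Mcl1 encodes a short-lived pro-survival protein that binds BAK and several BH3-only proteins. It was at 5387, 4979.6 and 5968 normalized counts in DMSO and at 4124, 4211 and 3816 in SKI-II. The highest SKI-II library remained under the lowest DMSO library. Mcl1 fell to 0.744 of its DMSO level (log2 fold change -0.43, SE 0.12, 95% interval -0.70 to -0.15, adjusted p = 0.0204, edgeR). This call rested on single libraries, since the adjusted p was 0.0583 without DMSO replicate 3, 0.0553 without SKI-II replicate 2 and 0.0639 without SKI-II replicate 3. The log2 fold change in those fits was -0.36, -0.45 and -0.39, and without both replicates numbered 3 it was -0.32 with an adjusted p of 0.112. Mcl1 lies on the plus strand at chr3:95658788-95663176 and overlaps no annotated exon of another gene.

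Bcl2, the founding pro-survival member, was at 514, 724 and 589.7 normalized counts in DMSO and at 307, 378 and 696 in SKI-II. SKI-II replicates 1 and 2 lay below all DMSO libraries, whereas SKI-II replicate 3 lay above 2 of them. The difference did not pass the test (log2 fold change -0.40, SE 0.27, 95% interval -1.01 to 0.22, adjusted p = 0.285, edgeR). Without SKI-II replicate 3 the log2 fold change was -0.83 with an adjusted p of 0.00886, so 1 library decided the call. Bcl2 spans chr1:106538178-106714274 on the minus strand, and 6.09% of its exon bases are shared with a gene on the other strand.

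The RNA of the effectors Bax and Bak1, whose proteins form the pores, did not pass the test in either direction. Bax was at 1836, 2318 and 2649.6 normalized counts in DMSO and at 2164, 2148 and 2584 in SKI-II, and the SKI-II values fell inside the DMSO range. Its log2 fold change was 0.02 (SE 0.15, 95% interval -0.32 to 0.36, adjusted p = 0.932, edgeR), and its sign turned when DMSO replicate 1 was left out (-0.13) or SKI-II replicate 3 (-0.07). Bak1 was at 4146, 3455 and 4002 normalized counts in DMSO and at 3696, 3497 and 3420.1 in SKI-II. The Bak1 groups overlapped, with a log2 fold change of -0.13 (SE 0.12, 95% interval -0.40 to 0.14, adjusted p = 0.432, edgeR). These intervals leave room for a change of up to 1.28-fold upward for Bax and down to 0.760 of the DMSO level for Bak1. Exons of Bax (chr7:45461697-45466898, minus strand) share 12.18% of their bases with a gene on the same strand, and those of Bak1 (chr17:27019810-27029009, minus strand) share 18.16% with Ggnbp1 on the other strand. Ggnbp1, taken up only for this overlap, had at most 65 counts in a library.

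Among the BH3-only genes, Pmaip1 showed the largest change of the 10 members. Its protein NOXA binds MCL1 and promotes the degradation of MCL1. Pmaip1 was at 549, 745 and 1011 normalized counts in DMSO and at 354, 252 and 492 in SKI-II, and the groups did not overlap. It fell to 0.477 of its DMSO level (log2 fold change -1.07, SE 0.27, 95% interval -1.66 to -0.47, adjusted p = 0.0113, edgeR). The log2 fold change ran from -1.35 to -0.82 with 1 library left out in turn, and all 6 fits passed.

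Bad, whose protein binds BCL2 and BCL-XL when it is not phosphorylated, was at 325, 309 and 366 normalized counts in DMSO and at 522, 511 and 453 in SKI-II. All SKI-II libraries lay above all DMSO libraries. Bad rose 1.48-fold (log2 fold change 0.57, SE 0.14, 95% interval 0.25 to 0.89, adjusted p = 0.0111, edgeR). The call was lost without DMSO replicate 2, where the log2 fold change was 0.51 and the adjusted p 0.0646. Bad lies on the plus strand at chr19:6941861-6951899, and 20.48% of its exon bases are shared with Gpr137 on the other strand. Gpr137, taken up only for this overlap, had a log2 fold change of 0.26 that did not pass (adjusted p = 0.139, edgeR). Without knowledge of the strand setting used in counting, the reads of both genes cannot be told apart where they overlap.

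Bbc3, which encodes PUMA and is a known p53 target, had the widest spread of the members in DMSO, whereas Bcl2 had it in SKI-II. It was at 937, 2088 and 2811 normalized counts in DMSO, a coefficient of variation of 48.6% against a median of 14.04% over all tested genes, and at 1195, 1119 and 1972 in SKI-II. All 3 SKI-II libraries lay inside the DMSO range. The log2 fold change was -0.44 (SE 0.35, 95% interval -1.22 to 0.33, adjusted p = 0.347, edgeR). Without DMSO replicate 1, its lowest library, it was -0.79 with an adjusted p of 0.0222, and without DMSO replicate 3 it was -0.08. With no filter on low counts in the edgeR fit the log2 fold change was again -0.44, but the adjusted p was 0.0218. The call for Bbc3 thus depended on both a library and the filter. The shift of the adjusted p was not particular to Bbc3: without the filter it also fell for Pmaip1 (2.48e-08) and rose for Mcl1 (0.0304). Bbc3 is at chr7:16308393-16318205 on the plus strand.

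Bcl2l11, which encodes BIM, an activator that binds all pro-survival members, was at 458, 498 and 552 normalized counts in DMSO and at 629, 625 and 510.3 in SKI-II. SKI-II replicates 1 and 2 lay above all DMSO libraries and SKI-II replicate 3 inside their range. The difference did not pass the test (log2 fold change 0.23, SE 0.14, 95% interval -0.10 to 0.55, adjusted p = 0.249, edgeR), nor did it in any of the 6 fits with 1 library left out. Bcl2l11 lies on the plus strand at chr2:128126038-128162547, and counts per gene do not separate the BIM splice forms.

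Bid, the link from death receptors to the mitochondria once its protein is cleaved by caspase-8, was at 1077, 988 and 995 normalized counts in DMSO and at 981, 1261 and 1021 in SKI-II. The groups overlapped, with SKI-II replicate 2 above the DMSO range and replicate 1 just below it. Its log2 fold change was 0.09 (SE 0.13, 95% interval -0.20 to 0.39, adjusted p = 0.619, edgeR), and -0.02 without SKI-II replicate 2. Bid lies on the minus strand at chr6:120891930-120916853, where 17.69% of its exon bases are shared with Bcl2l13 on the other strand.

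**Figure D2:**
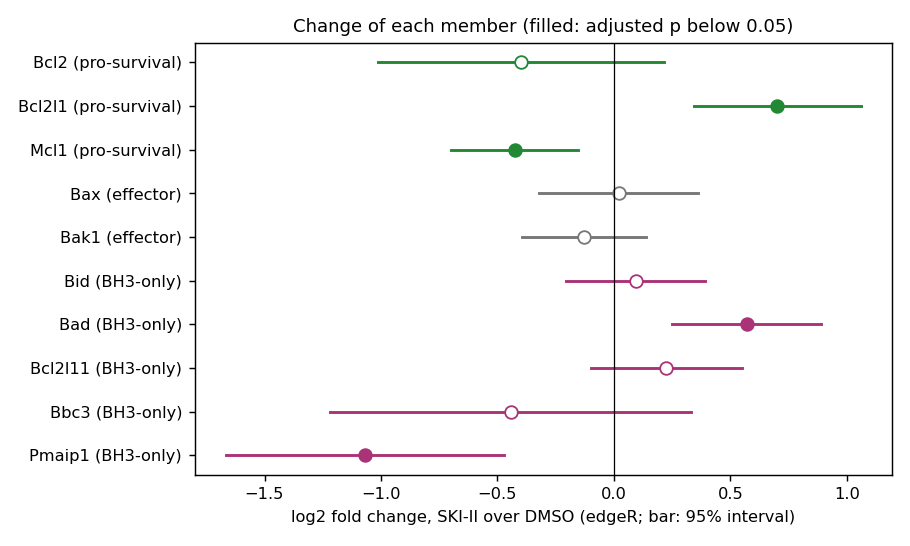
Log2 fold change of SKI-II over DMSO (x axis) with its 95% interval from edgeR for each member, coloured by class and filled where the adjusted p was below 0.05. The 4 filled points are Bcl2l1 at 0.70, Mcl1 at -0.43, Bad at 0.57 and Pmaip1 at -1.07, and the intervals of the other 6 members include 0.

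**Figure D3:**
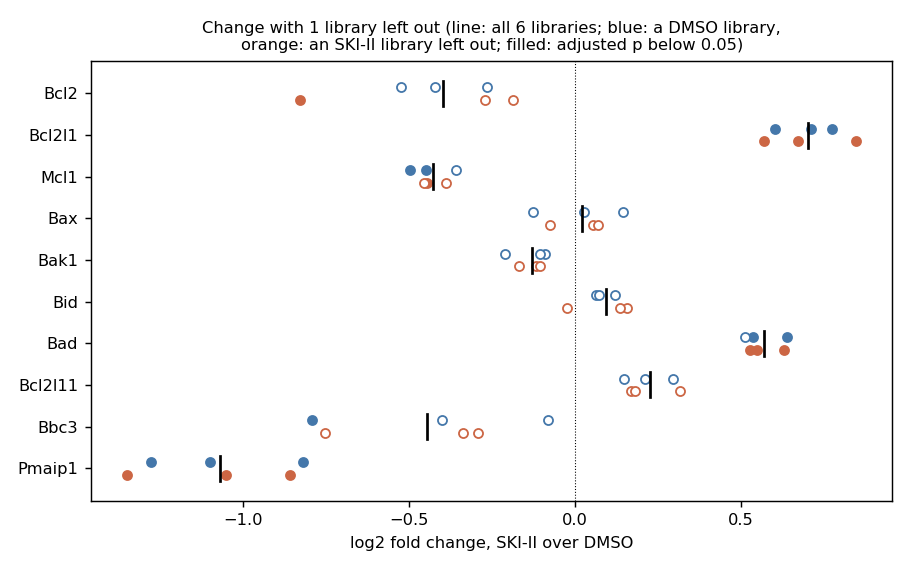
Log2 fold change of SKI-II over DMSO (x axis) for each member with all 6 libraries (black line) and with 1 DMSO (blue) or 1 SKI-II (orange) library left out, filled where the adjusted p was below 0.05. Bcl2l1 and Pmaip1 stayed filled in all 6 fits, Bad in 5 and Mcl1 in 3, and 1 fit each was filled for Bcl2 and Bbc3.

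The library with the highest level was the same for several members. Bcl2l1, Bax, Bbc3 and Pmaip1 were highest in replicate 3 of both groups, 4 of the 10 members, as were 23.6% of all tested genes. The same held for 9 of 13 other p53 targets tested. The spread of Pmaip1 was also wide, with a coefficient of variation of 30.2% in DMSO and 32.9% in SKI-II, whereas Mcl1 varied by 9.12% and 5.12%. The replicates numbered 3 were also the deepest library of each group, and this pattern was noticed after the values were seen.

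To compare levels between genes, normalized counts were divided by the merged exon length in kilobases. In DMSO the highest levels were those of Bak1 at 1609 ± 152, Mcl1 at 1595 ± 145 and Bax at 1440.5 ± 259.8 normalized counts per kilobase (SD, n = 3), which overlapped in that order, as Bax did with Bbc3 at 917 ± 445. Next were Bcl2l1 at 349.7 ± 41.9, Bid at 288 ± 13.9 and Pmaip1 at 282 ± 84.9 per kilobase, each overlapping its neighbour. Bad at 130.5 ± 11.5 stood below them, and Bcl2 at 66.6 ± 11.6 and Bcl2l11 at 62.7 ± 5.88 formed an overlapping pair at the bottom. The RNA of effectors and of Mcl1 thus headed the order in the vehicle group.

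In SKI-II the order of levels began with Bak1 at 1472 ± 59.6 and Bax at 1460.4 ± 157 per kilobase, which overlapped. Mcl1 at 1187 ± 61.0 stood next, below both effectors in every SKI-II library. Bbc3 at 673 ± 222 overlapped Bcl2l1 at 569 ± 109, and Bcl2l1 no longer overlapped Bid at 307 ± 42.7. Bad at 194 ± 14.4 stood above Pmaip1 at 134 ± 44.1 in the mean, the reverse of their DMSO order, but their SKI-II ranges overlapped. Bcl2l11 at 73.3 ± 8.43 and Bcl2 at 50.3 ± 22.6 were again the lowest and overlapped. The order depended on the length used: with the longest coding transcript, Bax had the highest mean in both groups, overlapping Bak1 in DMSO. Bcl2l1, at 624 ± 74.9 in DMSO and 1015 ± 195 in SKI-II on that scale, then stood above Bid in all libraries of both groups, and above Bbc3 (787.5 ± 260.4) in the SKI-II mean. Bad then stood above Pmaip1 in SKI-II without overlap, and Mcl1 remained below both effectors in every SKI-II library.

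Summed over a class, the levels overlapped between the groups. The pro-survival sum was 1996, 1841 and 2196.2 normalized counts per kilobase in DMSO and 1830.4, 1727 and 1861 in SKI-II. The effector sum was 2891, 2910.0 and 3347 in DMSO and 2913, 2819 and 3064 in SKI-II. The BH3-only sum, in which Bbc3 weighed most, was 1131, 1719 and 2188 in DMSO and 1253, 1253 and 1639 in SKI-II. The pro-survival to effector ratio was 0.691, 0.633 and 0.656 in DMSO and 0.628, 0.613 and 0.608 in SKI-II, without overlap. With the longest coding transcript as length it overlapped, at 0.673, 0.590 and 0.615 in DMSO and 0.654, 0.612 and 0.636 in SKI-II. Neither the 3 sums nor their ratio had a test.

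The make-up of the pro-survival sum differed between the groups. Bcl2l1 took 18.1%, 16.5% and 17.5% of it in DMSO and 32.2%, 26.2% and 35.9% in SKI-II, and Mcl1 took 79.1%, 79.2% and 79.6% in DMSO and 66.0%, 71.4% and 60.1% in SKI-II. Neither share overlapped between the groups. The ratio of Mcl1 to Bcl2l1 per kilobase was 4.36, 4.81 and 4.55 in DMSO and 2.05, 2.73 and 1.68 in SKI-II. It fell by 1.12 on the log2 scale, 2.17-fold, a change that does not depend on the scaling between libraries or on gene length. The shares themselves do depend on length: with the longest coding transcript in place of all exons, the mean Bcl2l1 share was 27.1% in DMSO and 44.6% in SKI-II. Since both genes had passed the test in opposite directions, these shares describe the same difference and are no separate result.

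**Figure D4:**
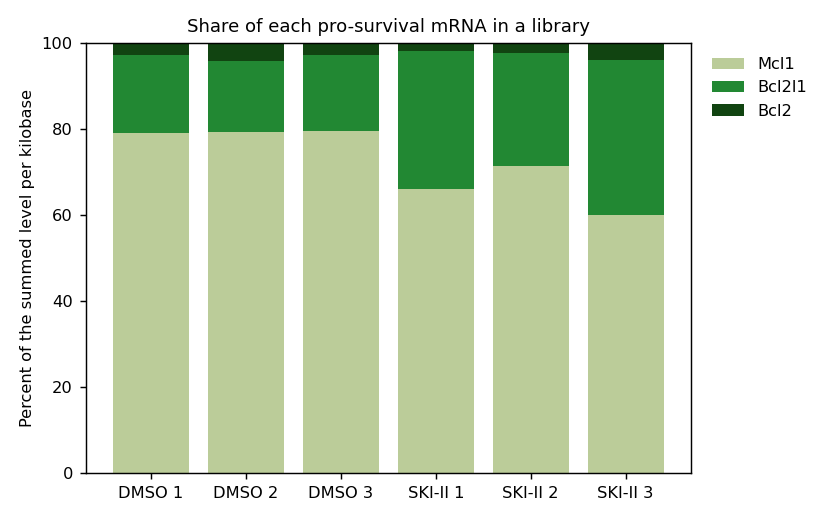
Share of Mcl1, Bcl2l1 and Bcl2 (percent, y axis from 0 to 100) in the summed pro-survival level per kilobase of merged exon length in each library. The Bcl2l1 share lies between 16.5% and 18.1% in DMSO and between 26.2% and 35.9% in SKI-II.

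Other ratios between binding partners were taken within each library. Bcl2l1 over Bad, 2 genes that both rose, was 2.84, 2.504 and 2.68 per kilobase in DMSO and 2.88, 2.26 and 3.76 in SKI-II, and the groups overlapped. Mcl1 over Pmaip1, 2 genes that both fell, was 7.84, 5.35 and 4.72 in DMSO and 9.31, 13.4 and 6.21 in SKI-II, again with overlap. Bcl2l1 over Bak1 differed by 0.82 on the log2 scale and Bcl2l1 over Bax by 0.66, both without overlap between the groups. Since Bcl2l1 had passed the test and neither effector had, these ratios describe the same rise of Bcl2l1 and are no separate result.

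The rest of the BCL2 family moved in both directions. Of 16 further family genes, 10 were tested, of which 2 rose and 2 fell (20% each), near the background of 18.4% and 19.7%, with a median log2 fold change of 0.29. Bcl2l2, which encodes the pro-survival BCL-W, rose by 0.62 on the log2 scale (SE 0.17, adjusted p = 0.0164, edgeR), a call lost when DMSO replicate 2 (0.57) or one of SKI-II replicates 1 (0.50) and 2 (0.56) was left out, with adjusted p from 0.0642 to 0.0737. Bok, which encodes a protein related to BAX and BAK, fell from 80.5, 74.5 and 59.4 normalized counts to 14.5, 39.1 and 26.0 (log2 fold change -1.41, SE 0.37, adjusted p = 0.0127). Bcl2a1d, which encodes a form of the pro-survival A1, fell by 0.94 (SE 0.20, adjusted p = 0.00513), but its near-identical copies make the assignment of its reads uncertain. The copy Bcl2a1b, named after its values were seen, was at 333, 266 and 271 normalized counts in DMSO and at 267, 497 and 466 in SKI-II (log2 fold change 0.50, adjusted p = 0.114). It passed without SKI-II replicate 1 (0.73, adjusted p = 0.0145) and with no filter (adjusted p = 0.0397). Summed over the 4 copies, A1 RNA reached 509.7 ± 52.0 normalized counts with DMSO and 526 ± 147 with SKI-II (SD, n = 3), with overlapping groups. Bcl2l15 had a log2 fold change of 1.79 (adjusted p = 0.0321) on at most 28.6 normalized counts, with adjusted p up to 0.148 when SKI-II replicate 2 was left out (1.35). The Bcl2l15 call was also lost when one of DMSO replicates 2 (1.76) and 3 (1.38) or SKI-II replicate 1 (1.97) was left out, and with DESeq2 (adjusted p = 0.0514).

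A further list held 9 tested genes, of the apoptosome, of proteins released from mitochondria and of the 3 voltage-dependent anion channels resident in the outer membrane, and 2 rose (22.2%) and 3 fell (33.3%), with a median of -0.03, against 18.4% and 19.7% of all tested genes. The channel genes made 3 of these 5 calls. Vdac3 rose by 0.92 on the log2 scale (SE 0.13, adjusted p = 0.000490, edgeR), whereas Vdac1 fell by 0.63 (SE 0.13, adjusted p = 0.00347) and Vdac2 by 0.59 (SE 0.13, adjusted p = 0.00671). VDAC2 is known to bind BAK. Htra2, which encodes a protease that antagonizes IAP proteins, fell by 0.68 (SE 0.15, adjusted p = 0.00526). Diablo, which encodes the IAP antagonist SMAC, had a log2 fold change of 0.46 with an adjusted p of 0.0439. Of the 6 fits with 1 library left out, the Diablo call held only in the one without SKI-II replicate 3, with log2 fold changes of 0.48, 0.49 and 0.36 without DMSO replicates 1, 2 and 3 and of 0.34 and 0.47 without SKI-II replicates 1 and 2. It was also lost with library size alone (adjusted p = 0.0697) and with no filter (adjusted p = 0.0536).

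Of 6 caspase genes tested, 1 rose (16.7%) and 3 fell (50.0%), with a median of -0.30, against 18.4% higher and 19.7% lower over all tested genes. Casp2, an initiator activated by the PIDD1 complex, fell by 0.71 on the log2 scale (SE 0.14, adjusted p = 0.00305, edgeR). Casp8, the initiator of the death receptor route that cleaves BID, rose by 0.64 (SE 0.16, adjusted p = 0.0117), which was lost without DMSO replicate 2 (0.56, adjusted p = 0.0634). No caspase of the 6 reached a log2 fold change of 1 in size.

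Of 8 genes encoding inhibitor of apoptosis proteins, 2 rose and 2 fell (25% each), near the 18.4% and 19.7% of all tested genes, with a median of 0.25. Birc5, which encodes survivin and also serves in cell division, fell from 1056, 981 and 927 to 163, 234 and 235 normalized counts (log2 fold change -2.22, SE 0.16, adjusted p = 1.68e-05, edgeR). Birc3, which encodes cIAP2, fell by 1.14 (SE 0.14, adjusted p = 0.000208). Naip5 and Naip2 rose by 1.12 and 0.70 (adjusted p = 0.00127 and 0.00147), and both are better known as inflammasome receptors for bacterial proteins than as caspase inhibitors. The Naip genes are close copies of each other, so reads may be split between them.

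Among 13 tested transcription factors and cofactors known to act on the family's genes, 6 rose (46.2%) and 2 fell (15.4%), against 18.4% and 19.7% of all tested genes, with a median of 0.30. Ddit3, which encodes CHOP, a factor of the unfolded protein response known to act on Bcl2l11 and Bbc3, was at 1173, 2834 and 3437 normalized counts in DMSO and at 11072, 7003 and 5669.8 in SKI-II. It rose by 1.67 on the log2 scale (SE 0.36, adjusted p = 0.00552, edgeR) with no overlap. Of the other stress-response regulators, Trib3 rose by 1.67 (SE 0.24, adjusted p = 0.000714) and Atf3 by 1.48 (SE 0.26, adjusted p = 0.00204). Atf4 had a smaller log2 fold change of 0.41 (SE 0.14, adjusted p = 0.0412), which did not pass when one of DMSO replicates 1 (0.30) and 2 (0.44) or of SKI-II replicates 1 (0.41) and 2 (0.35) was left out. Next to these, Bcl2l11 and Bbc3 had log2 fold changes of 0.23 and -0.44, neither of which passed.

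Myc had the largest log2 fold change of the regulators at 3.24 (SE 0.52, adjusted p = 0.000940, edgeR), from 7.76, 10.1 and 7.92 normalized counts in DMSO to 129.6, 80.1 and 36.6 in SKI-II. Jun, which encodes an AP-1 subunit, rose by 0.93 (SE 0.19, adjusted p = 0.00402). E2f1 fell by 0.51 (SE 0.12, adjusted p = 0.00958). Foxo3, which encodes a factor that acts on Bcl2l11, had a log2 fold change of -0.63 (SE 0.21, adjusted p = 0.0383), and it failed the test when one of DMSO replicates 2 (-0.63) and 3 (-0.48) or of SKI-II replicates 1 (-0.71) and 2 (-0.43) was left out. Rela (0.30), Nfkb1 (0.15), Stat3 (0.08) and Foxo1 (-0.36) did not pass the test.

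Trp53, which encodes p53, was at 2702, 2602 and 2483 normalized counts in DMSO and at 2773, 2566 and 2527 in SKI-II. Its log2 fold change was 0.01 (SE 0.11, adjusted p = 0.932, edgeR), with overlapping groups. Of 13 other p53 targets tested, 2 rose (15.4%) and 3 fell (23.1%), near the background of 18.4% and 19.7%, with a median of 0.00. Mdm2, which encodes the ligase of p53, rose by 0.64 (SE 0.17, adjusted p = 0.0143), a call that needed both DMSO replicate 2 (0.59 without it) and SKI-II replicate 1 (0.52 without it), and Sesn2 rose by 0.64 (SE 0.14, adjusted p = 0.00465). Sesn1 fell by 0.89 (SE 0.16, adjusted p = 0.00174). Pidd1 had a log2 fold change of -1.15 (adjusted p = 0.0269) that was lost when DMSO replicate 1 (-0.73) or one of SKI-II replicates 1 (-1.25) and 3 (-0.92) was left out. Aen had one of -0.63 (adjusted p = 0.0427), lost when one of DMSO replicates 2 (-0.69) and 3 (-0.47) or of SKI-II replicates 1 (-0.53) and 2 (-0.49) was left out.

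Proteins that control the family after translation were read from 14 tested genes, of which 5 rose (35.7%) and 0 fell by edgeR's adjusted p, against 18.4% and 19.7% of all tested genes, with a median of 0.15. Dynll2, a dynein light chain that holds the BH3-only protein BMF, rose by 0.66 (SE 0.15, adjusted p = 0.00700). Dynll1, the light chain that holds BIM, had a log2 fold change of 1.22 (SE 0.33, adjusted p = 0.0151), lost when DMSO replicate 2 (1.10) or one of SKI-II replicates 1 (1.05) and 2 (1.11) was left out. Fbxw7, part of a ubiquitin ligase that marks MCL1 for degradation, rose by 0.56 (SE 0.13, adjusted p = 0.00798). Usp9x, which encodes a deubiquitinase that stabilizes MCL1 and is named after its values were seen, also rose, by 0.51 (SE 0.12, adjusted p = 0.00906), with an adjusted p of 0.05003 without DMSO replicate 2 (0.51). Over all 7 lists, 20 of 73 tested genes rose (27.4%) and 15 fell (20.5%), against 18.4% and 19.7% of all tested genes. Without DMSO replicate 2, 11 of these rose, the lowest count with 1 library left out, and over all tested genes the count that rose was also lowest there, at 1507 of 12589 against 2255 of 12274.

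**Figure D5:**
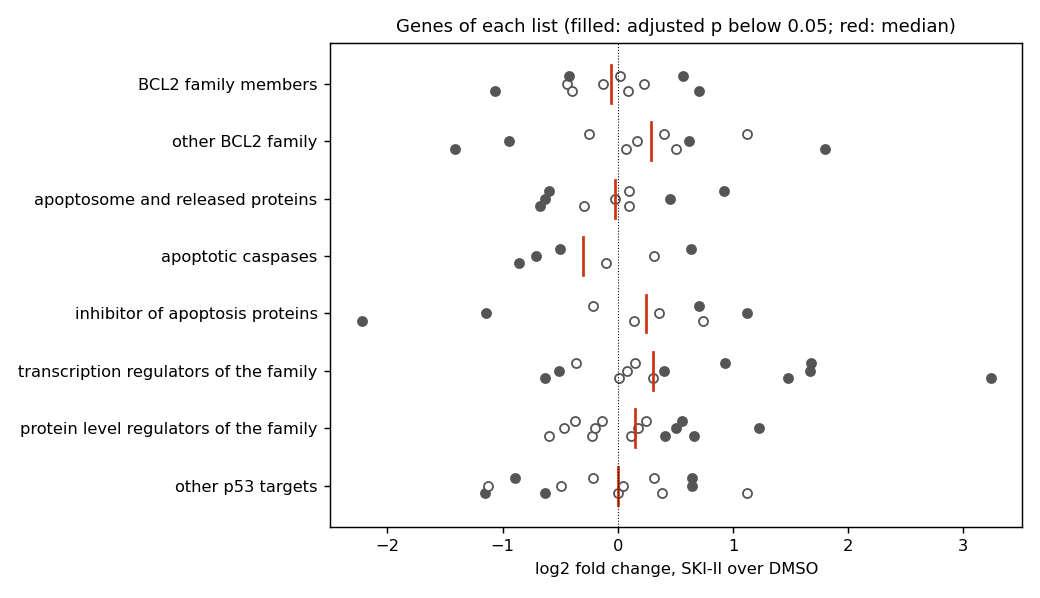
Log2 fold change of SKI-II over DMSO (x axis) of the 10 members and of the tested genes of the 7 other lists, one point per gene, filled where the adjusted p was below 0.05, with a red line at each list's median. The medians lie between -0.30 for the caspases and 0.30 for the transcription regulators, and Myc at 3.24 and Birc5 at -2.22 are the extreme points.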

How the data were processed

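RNA-seq counts of 6 RAW264.7 libraries, 3 per group, were analysed. The authors enriched mRNA with oligo(dT) beads and deposited a table of raw counts per Ensembl gene, not normalized, which was used here. The submitters' processing notes name Trimmomatic 0.36, STAR 2.5.2b, featureCounts of Subread 1.5.2 and DESeq2. Genome build, annotation and strand setting: not given in the sources used here. Groups and replicate numbers were taken from the labels, dose and time from the methods.

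Symbols, positions and lengths were those of GENCODE M21 (GRCm38), which named 48970 of 49315 identifiers; the others held 0.0391% of the counts. Groups were compared by the quasi-likelihood method of edgeR 4.0.16 (F test) with TMM scaling, a filter by group (minimum count 10, minimum total 15) and Benjamini-Hochberg adjustment over 12274 genes. Normalized counts are scaled to 16042438 counts per library. The common coefficient of variation was 17.46%. No 2 libraries of a group agreed within sampling noise (chi-square per degree of freedom 15.4 to 58.1). Alternatives were DESeq2 1.42.0, limma-voom (limma 3.58.1), other scalings, filters and lengths, each library left out, and the replicate number as a block.

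The members, the lists and the rule for named genes were chosen with earlier results of these data known. Named were all members, up to 3 called genes with the largest and 3 with the smallest log2 fold change of each other list, and any of the transcription regulators. Results of some genes that this rule selects were left out of the text. On simulated counts for this comparison over 12085 genes, edgeR recovered 96% of 200 genes changed by a log2 fold change of 2, with 11 false calls. Smaller changes were not simulated, so this does not give the power for changes of the members' size. The plots were made in matplotlib 3.10.9.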

Additional observations from a re-analysis of the deposited data

How the results depend on the processing

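Of the members, 2 rose and 2 fell with DESeq2, limma-voom, RLE scaling, library size alone, the stricter filter and the replicate block; without a filter 2 rose and 3 fell. With 1 library left out, 1 to 2 rose and 1 to 3 fell. With a log2 fold change beyond 1 required as well, 0 rose and 1 fell. Over the 7 other lists, 11 to 23 genes rose with 1 library left out, against 20 with all; over all tested genes 1507 to 2227 did, against 2255. Bax ranged from -0.13 (-0.07 without SKI-II replicate 3) to 0.15, Bid from -0.024 to 0.16 and Trp53 from -0.034 (-0.019 without DMSO replicate 3) to 0.039 on the log2 scale, turning sign below 0. The log2 difference of the pro-survival sum was -0.16, and -0.023 with the longest coding transcript as length, an alternative chosen after seeing the data, as was leaving out both replicates numbered 3. Of the member fold changes under alternatives, 128 kept their direction and side of the threshold, 5 lost the call, 4 gained it and 3 turned sign.

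The replicate numbers are labels only. Deviations from the group means correlated by 0.25, 0.01 and 0.46 between same-numbered libraries. Replicate 2 of SKI-II correlated best with replicate 1 of DMSO (0.30), and the main fit did not take the numbers to pair libraries. The replicates numbered 3 did resemble each other. SKI-II replicate 3 correlated by -0.46 and -0.05 with DMSO replicates 1 and 2, and DMSO replicate 3 by -0.255 and -0.28 with SKI-II replicates 1 and 2. Whether the replicates numbered 3 had a common origin was not tested. With the replicate block, 24 and 19 genes of the other lists rose and fell, against 20 and 15, and 2765 and 2819 of all genes, against 2255 and 2413.

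The 3 libraries per group and the spread of Bbc3, Bcl2 and Pmaip1 limit what these counts can show. The fold changes that did not pass have intervals as wide as -1.22 to 0.33 for Bbc3. Counts per gene hold no splice forms, and RNA does not give the level, the phosphorylation or the cleavage of these proteins.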

Other observations

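Family genes kept out of the test by the filter on low counts were Bcl2l10, Bcl2a1a, Bcl2a1c, Bik, Hrk and Bcl2l14, named here after their values were seen. Bcl2l10 was at 0 in all 6 libraries, and Hrk had 1 count in all. The counts of Bik, a BH3-only gene, were 1, 3 and 2 for DMSO and 4, 2 and 5 for SKI-II. Those of Bcl2l14 were 4, 2 and 3 for DMSO and 0 for every SKI-II library. Set against a floor of 3 counts over the SKI-II group, its level was 3.36-fold lower. The floor allows for counting error in SKI-II alone. The few DMSO counts were taken as exact, so this value is no firm minimum, and it had no test.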
